A study of Mus musculus with 9 samples.

Results

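The C-type lectin and Klr receptor family was read here from every probe of the array whose single gene symbol begins with Clec and a digit, with Cd209 or with Klr, or is Mgl2. This rule took 63 probes of 61 genes out of 34468 probes with a value in every sample (22180 genes by single symbols), and Cd209a and Cd209c were the genes with 2 probes. A further 6 probes carry the symbols of several family members and are described apart. The rule used names only, not measured values.

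Total RNA was measured in dendritic cells (DCs) that had been sorted out of mouse spleens as CD11c-positive and MHC class II-positive, 1 array for each of 9 samples. The 3 knockout samples (C/EBPβ-/-) came from CD11c-Cre-eGFP mice crossed to C/EBPβflox/flox, in which Cre under the CD11c promoter acts on the loxP-flanked gene of the transcription factor C/EBPβ. The 6 control samples are labelled C/EBPβ+/+. Their sources are named as C57BL/6 and CD11c.Cre mice without saying which sample came from which, so the labels do not tell which controls carry the Cre transgene. All samples are labelled as naive and of C57BL/6 background, and no age is given. The CD11c promoter is also active in some macrophages and other myeloid cells, and samples exposed to lymphoma cells were not analysed here. Nothing in the labels places the replicates in separate animals, and the p-values cover only variation among these 9 samples, which may be technical.

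C-type lectins are surface receptors that share a carbohydrate recognition fold. On DCs and macrophages many of them bind sugars of microbes, of glycoproteins or of dying cells, take up antigen, and signal through activating motifs or partner chains (Syk and Card9) or through inhibitory motifs that recruit phosphatases. The Klr genes encode lectin-like receptors first studied on natural killer (NK) cells, where inhibitory and activating members read MHC class I molecules or Clec2 proteins on other cells. Most of the genes sit in a few chromosomal blocks as close copies of each other.

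The 9 arrays had median log2 intensities of 5.49 to 5.56, and any pair of arrays correlated at 0.987 to 0.996 across probes. Cebpb, the deleted gene, measured 5.37, 5.60 and 5.42 in the 3 knockouts while the controls spanned 6.64 to 7.15, which is a change of -1.35 (SE 0.11, adjusted p = 0.000686 by limma). Of 7 DC markers, Itgax (CD11c) and MHC class II genes among them, 0 passed, and their summed linear intensity was 36518 to 37936 in the knockouts and 35611 to 37594 in the controls. One of them, the MHC class II gene H2-Aa, was higher in every knockout than in every control, by 0.09 in the means (limma's adjusted p = 0.549). Knockout replicate 3 stood apart by its B cell genes, with Cd79a at 10.21, against 8.67 and 7.74 in the other knockouts and 7.29 to 8.24 in the controls. Knockout and control were compared with limma over all 34468 probes, with Benjamini-Hochberg adjustment across the whole array, and a probe was called where its adjusted p was under 0.05. Each change is the knockout mean minus the control mean in log2 units.

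Loss of C/EBPβ went with higher signal of a few lectin receptors of myeloid cells, while 45 of the 63 changes lay within 0.25 of 0. Of the 63 probes, 3 rose in the knockout and 0 fell, which is 4.76% of the family, beside 0.531% of all probes called in either direction (0.339% higher and 0.191% lower). The 3 were the inhibitory receptor gene Klrb1b, the beta-glucan receptor gene Clec7a and Clec4b1, which encodes an activating receptor of the DCIR locus. At an unadjusted p under 0.05, 11 family probes were higher and 5 lower, or 25.4% of the family beside 12.0% of all probes. All 3 knockouts lay above every control in 10 family probes and below every control in 2, that is 15.9% and 3.17%, beside 2.58% and 3.84% of all probes (6.42% in either direction). Of the 63, 12 (19.0%) differed by at least 0.50 in either direction, beside 2.04% of all probes. The median change was 0.041 for the family and -0.008 for all probes. By sample, the family's median deviation from the control mean was 0.031, 0.054 and 0.044 in the knockouts. In the controls it was -0.031 to 0.043, so control replicate 2, the highest, lay among the knockouts. Leaving out control replicate 1 took the family median to 0.0073, and leaving out knockout replicate 2 took it to 0.0092. The values describe bulk RNA, in which more cells of one type and more RNA per cell cannot be told apart.

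**Figure D1:**
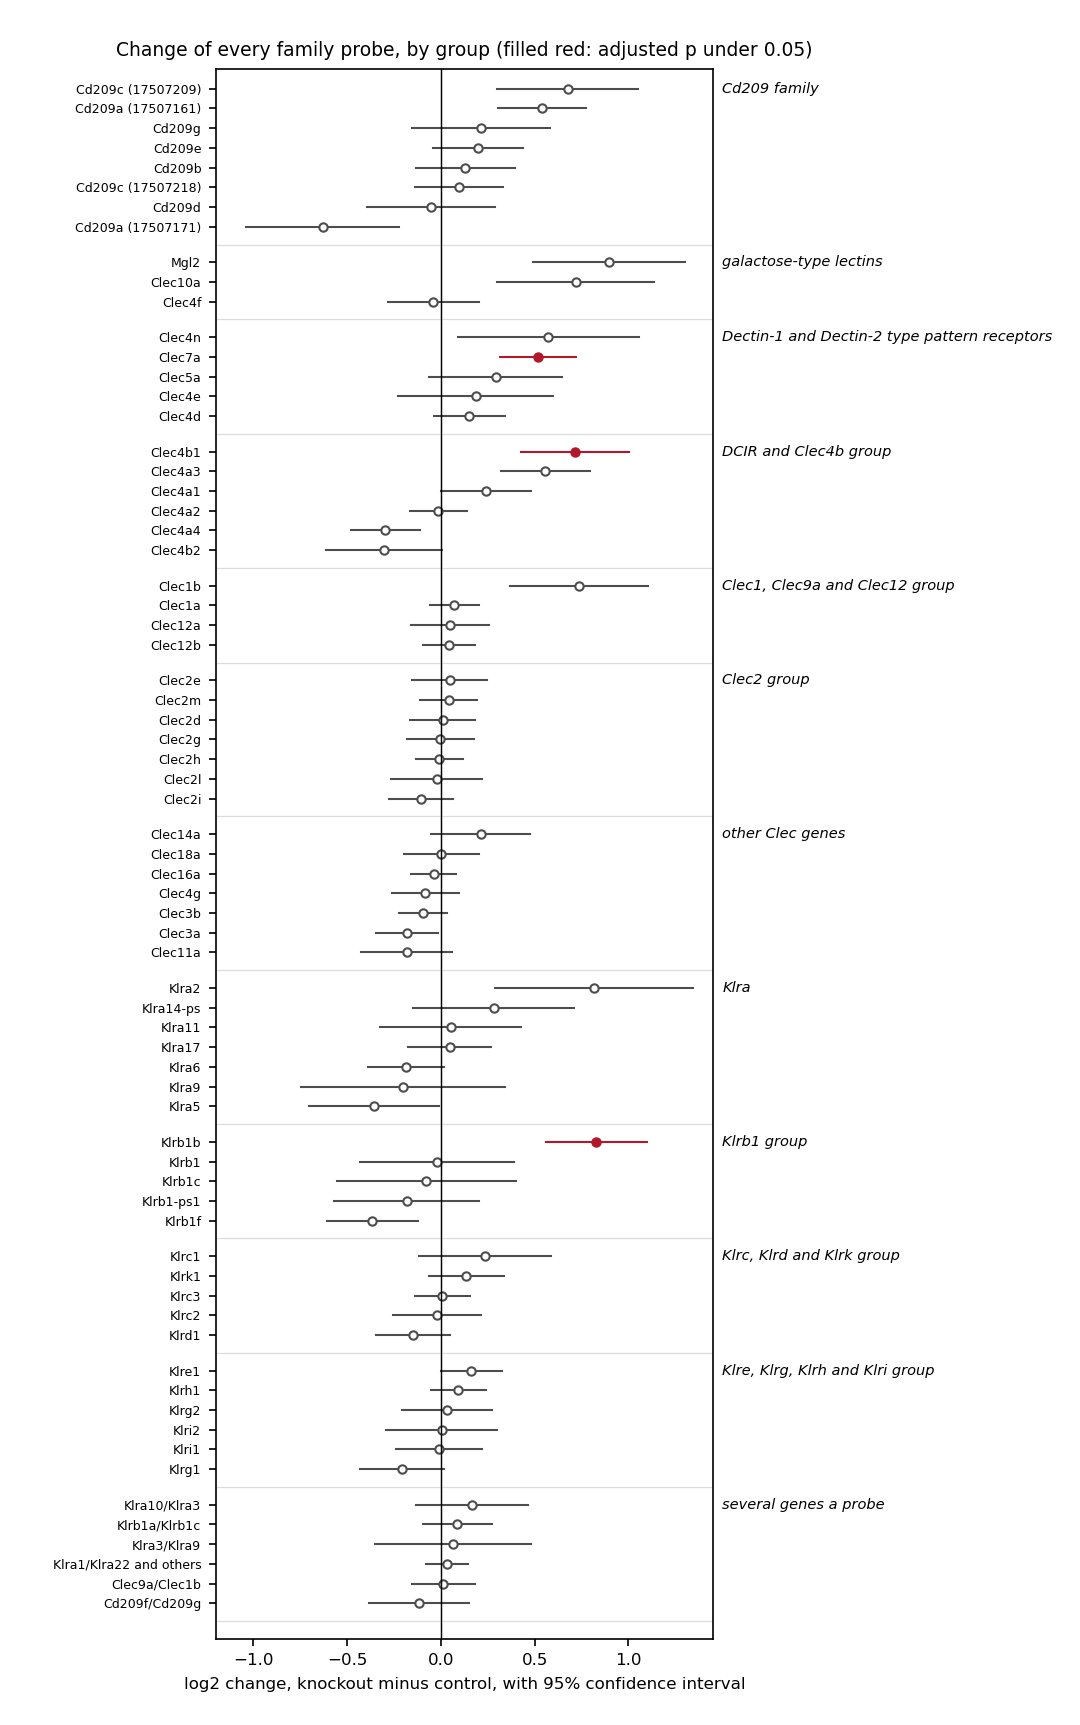
Log2 change, knockout minus control, with its 95% confidence interval, for the 63 family probes and the 6 probes of several genes, by group. Filled red points are the 3 probes with an adjusted p under 0.05 (Klrb1b, Clec7a and Clec4b1), and 45 of the 63 changes lie within 0.25 of 0.

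Klrb1b, an inhibitory member of the NKR-P1 receptors whose ligand is Clec2d, showed the smallest p of the family. Its log2 intensity was 7.33, 7.77 and 7.19 in knockout replicates 1 to 3. In the controls it ranged from 6.45 to 6.77 with a median of 6.57. Every knockout lay above every control, and knockout replicate 2 was the highest. The mean was 7.43 ± 0.31 (SD, n = 3) in knockouts and 6.60 ± 0.12 (SD, n = 6) in controls, which is 0.83 higher in knockouts (SE 0.12, adjusted p = 0.0228 by limma), or 1.78-fold, with a 95% confidence interval of 0.56 to 1.10. The call was lost without control replicate 3, 4, 5 or 6 (adjusted p = 0.051, 0.0622, 0.0632 and 0.0611) and held without any 1 of the other 5 samples, knockout replicate 3 included (adjusted p = 0.02).

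Clec7a encodes Dectin-1, which binds beta-glucans of fungal walls and signals through Syk. It had 12.23, 12.29 and 12.06 in the knockouts. Its control values ranged from 11.49 to 11.87 with a median of 11.68. The groups did not overlap, with a gap of 0.18 between the lowest knockout and the highest control. The change was 0.52 (SE 0.09) or 1.43-fold, from means of 12.19 ± 0.12 (SD, n = 3) in knockouts and 11.67 ± 0.14 (SD, n = 6) in controls, with limma's adjusted p = 0.0428.

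Clec4b1, which encodes the DC immunoactivating receptor that pairs with the FcRγ chain, had 6.75, 6.83 and 6.53 in the knockouts. Its control values ranged from 5.57 to 6.17 with a median of 6.06. Control replicate 2 was the lowest and the groups did not overlap. Clec4b1 was 0.72 higher in knockouts (SE 0.13, adjusted p = 0.0462 by limma), or 1.64-fold, with a 95% confidence interval of 0.43 to 1.00. Clec7a and Clec4b1 passed without control replicate 2 (adjusted p = 0.0401 and 0.0284) and missed 0.05 without any other single sample, with adjusted p from 0.054 to 0.175 for Clec7a and from 0.0587 to 0.18 for Clec4b1. With the arrays centred on their medians, Clec4b1 also missed it (adjusted p = 0.0615), and all 3 genes missed it with only controls 1 to 3 or 4 to 6 and with a minimum change of 1.2-fold.

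**Figure D2:**
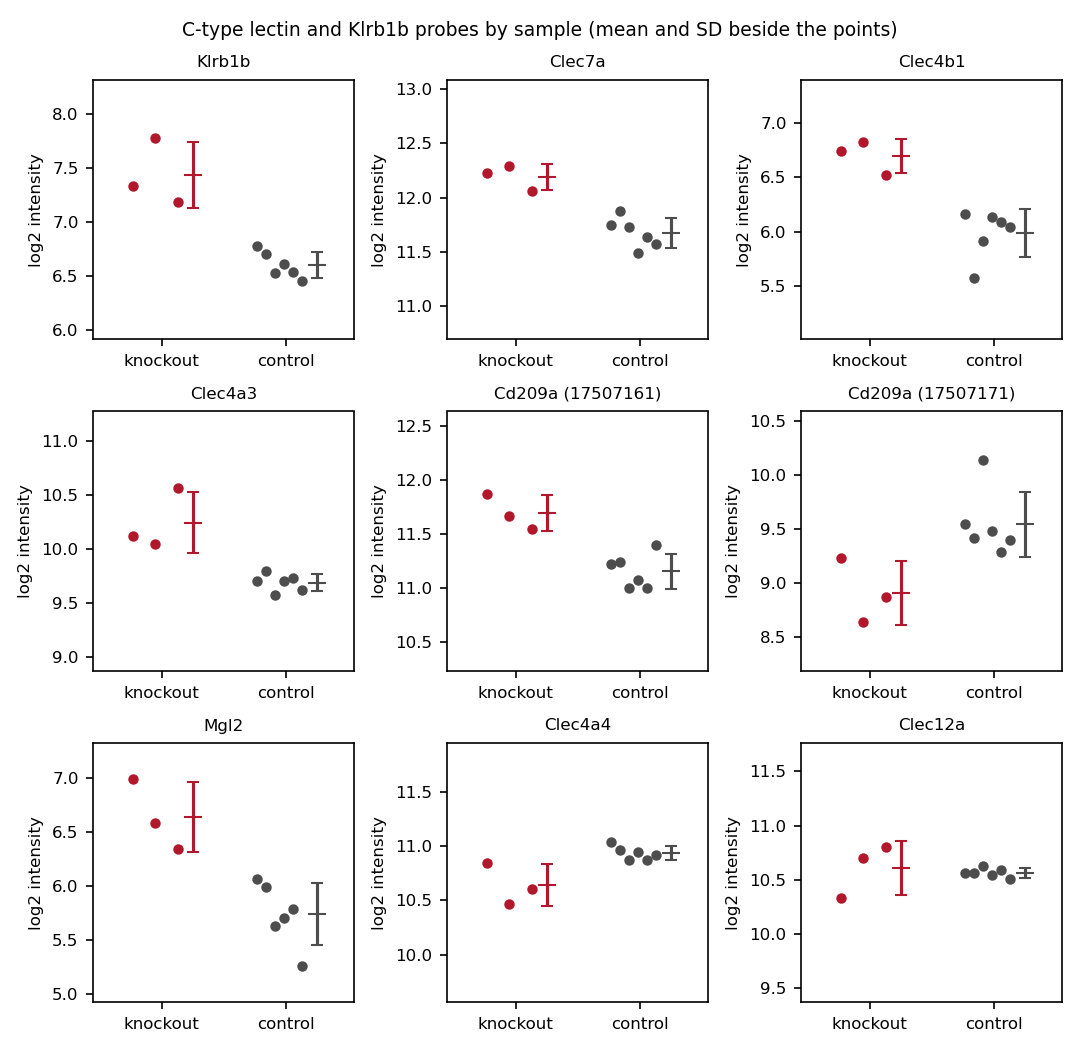
Log2 intensity of 9 probes in each sample, knockout at the left of control in every panel, with mean and SD beside the points; all panels span the same number of log2 units. The knockouts lie above every control for Klrb1b, Clec7a, Clec4b1, Clec4a3, Mgl2 and the first Cd209a probe, below every control for Clec4a4 and the second Cd209a probe, and on both sides of the controls for Clec12a.

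The promoter windows of these 3 genes are printed with that of Clec12a because they differ in the letters that C/EBP factors are known to bind. They are RefSeq sequences of build GRCm38.p6, from 250 bases before to 50 after the transcription start, 5′ to 3′ on the gene's strand, and RefSeq promoters were found for 49 of the 61 genes. Capitals mark matches to TTNNGNAA on either strand, a loose C/EBP core. Klrb1b lies at chr6:128826266-128826565 (minus strand), Clec7a at chr6:129472730-129473029 (minus strand), Clec4b1 at chr6:123049712-123050011 (plus strand) and Clec12a at chr6:129349994-129350293 (plus strand). Klrb1b and Clec7a each have 2 windows in the table, of which the one listed first is shown.
Klrb1b: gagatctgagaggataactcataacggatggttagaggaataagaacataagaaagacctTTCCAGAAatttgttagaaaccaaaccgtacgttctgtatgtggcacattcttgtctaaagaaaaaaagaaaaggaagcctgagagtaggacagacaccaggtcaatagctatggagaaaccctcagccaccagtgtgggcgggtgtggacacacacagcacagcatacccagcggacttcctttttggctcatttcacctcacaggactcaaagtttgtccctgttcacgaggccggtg
Clec7a: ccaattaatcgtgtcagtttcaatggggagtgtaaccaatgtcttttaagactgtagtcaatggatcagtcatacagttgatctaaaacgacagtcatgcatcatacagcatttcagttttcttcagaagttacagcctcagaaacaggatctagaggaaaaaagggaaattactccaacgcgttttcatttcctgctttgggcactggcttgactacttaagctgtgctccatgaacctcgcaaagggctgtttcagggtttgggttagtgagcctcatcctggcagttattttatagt
Clec4b1: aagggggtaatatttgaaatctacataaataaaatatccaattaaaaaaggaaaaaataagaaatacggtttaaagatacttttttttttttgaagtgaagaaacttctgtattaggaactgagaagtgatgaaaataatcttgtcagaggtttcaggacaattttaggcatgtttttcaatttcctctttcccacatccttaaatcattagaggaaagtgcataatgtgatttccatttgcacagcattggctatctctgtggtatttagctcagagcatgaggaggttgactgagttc
Clec12a: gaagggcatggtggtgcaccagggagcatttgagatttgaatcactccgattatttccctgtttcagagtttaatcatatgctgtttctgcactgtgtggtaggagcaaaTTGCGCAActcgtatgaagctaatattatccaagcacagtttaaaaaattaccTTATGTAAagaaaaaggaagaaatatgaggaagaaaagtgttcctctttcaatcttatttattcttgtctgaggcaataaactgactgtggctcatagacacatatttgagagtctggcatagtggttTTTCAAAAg

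The Clec7a and Clec4b1 windows hold 0 matches and the Klrb1b window 1, TTCCAGAA, whose first base is at -190 from the start. The Clec12a window holds 3, at -140, -87 and 41. The match at -140 is TTGCGCAA, the full palindrome that C/EBP dimers bind. This palindrome stood in 1 of 55 family windows (1.82%) and in 0.183% of all 32851 windows. The intermediate form TTNNGCAA, which contains the palindrome, stood in 23.6% of family windows and 10.8% of all. The loose form, which contains both, stood in 60% of family windows and 40.7% of all, while A and T made up 55.9% of the letters in family windows and 46.2% in all. Clec12a, an inhibitory receptor for uric acid crystals chosen here for its letters after its values were seen, had 10.33, 10.70 and 10.80 in the knockouts and 10.50 to 10.63 in the controls (median 10.56), a change of 0.05 (95% confidence interval -0.16 to 0.26, adjusted p = 0.892 by limma). A match is a run of letters in a window and says nothing on whether the factor binds there.

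Of the 5 genes for receptors of fungal and bacterial patterns, 1 (Clec7a) rose, and all 5 changes were positive with a median of 0.29. Clec4n, which encodes Dectin-2, a receptor for mannans, had 8.40, 8.73 and 8.22 in the knockouts, and 7.48 to 8.55 in the controls with a median of 7.77. The groups overlapped because control replicate 2 reached 8.55, and the change of 0.57 (SE 0.22) did not pass (limma's adjusted p = 0.321). The remaining members, Clec5a, Clec4d and Clec4e, differed by 0.15 to 0.29 and did not pass.

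The receptors of the DCIR group split in direction, 3 positive and 3 negative, with 1 of 6 past the threshold. Clec4a3 had 10.12, 10.04 and 10.56 in the knockouts, and 9.58 to 9.80 in the controls with a median of 9.70. All knockouts were above all controls, and the change of 0.56 (SE 0.11) had a limma adjusted p of 0.0575. Clec4a4 encodes DCIR2, an inhibitory receptor recognised by the antibody 33D1 on the CD8-negative DCs of the spleen. It had 10.85, 10.47 and 10.61 in the knockouts, and 10.87 to 11.04 in the controls with a median of 10.94. All knockouts were below all controls, by 0.02 at the nearest, and the change of -0.30 (SE 0.08) did not pass (limma's adjusted p = 0.157). Clec4a1 differed by 0.24 (adjusted p = 0.419), and Clec4a2 and Clec4b2 by -0.01 and -0.30, none past 0.05. Clec4b1 and Clec4b2 are close copies, and what each probe's oligonucleotides share with the other gene was not determined.

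The Cd209 genes, relatives of human DC-SIGN that bind mannose-rich sugars, had 0 of 8 probes past the threshold, and the 2 probes of Cd209a moved in opposite directions. Cd209a encodes a DC-SIGN relative found on DCs that derive from monocytes. Its first probe (17507161) had 11.87, 11.67 and 11.55 in the knockouts, and 11.00 to 11.40 in the controls with a median of 11.15. Its second probe (17507171) had 9.22, 8.64 and 8.87 in the knockouts, and 9.28 to 10.13 in the controls with a median of 9.44. The knockouts lay above every control on the first probe and below every control on the second. The changes were 0.54 (SE 0.11, adjusted p = 0.0592) and -0.63 (SE 0.18, adjusted p = 0.174) by limma, and which exons each probe reads is not given in the sources used here, so Cd209a has no settled direction. The first Cd209c probe (17507209) had 6.45, 6.79 and 7.18 in the knockouts, and 5.77 to 6.29 in the controls with a median of 6.26. These groups did not overlap either, but the change of 0.68 (SE 0.17) had an adjusted p of 0.117, and the second Cd209c probe (17507218) differed by 0.09 with overlapping groups. The other 4 probes of the group changed by -0.05 to 0.22.

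The neighbouring genes Mgl2 and Clec10a encode CD301b and CD301a, lectins for galactose and N-acetylgalactosamine, and were measured higher in every knockout than in every control. Mgl2, a marker of a subset of type 2 DCs, had 6.99, 6.58 and 6.34 in the knockouts, and 5.26 to 6.07 in the controls with a median of 5.75. Its change of 0.90 (SE 0.18, 95% confidence interval 0.49 to 1.30) was the highest of the family and did not pass (limma's adjusted p = 0.063). Clec10a had 5.39, 5.64 and 4.99 in the knockouts, and 4.06 to 4.90 in the controls with a median of 4.66. Its change of 0.72 (SE 0.19) had an adjusted p of 0.135. Clec4f, the lectin of liver Kupffer cells, differed by -0.04.

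Among receptors for damaged cells and platelets, 0 of 4 probes passed. Clec1b encodes CLEC-2, the receptor for podoplanin that lets DCs move along stromal cells. It had 6.64, 7.38 and 7.22 in the knockouts, and 6.04 to 6.55 in the controls with a median of 6.37. Every knockout was above every control, knockout replicate 1 by 0.09, and the change of 0.73 (SE 0.17) had a limma adjusted p of 0.0888, which ranged from 0.0237 without knockout replicate 1 to 0.279 without knockout replicate 2. The group's other 3 genes, Clec1a, Clec12a and Clec12b, changed by 0.04 to 0.07.

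**Figure D3:**
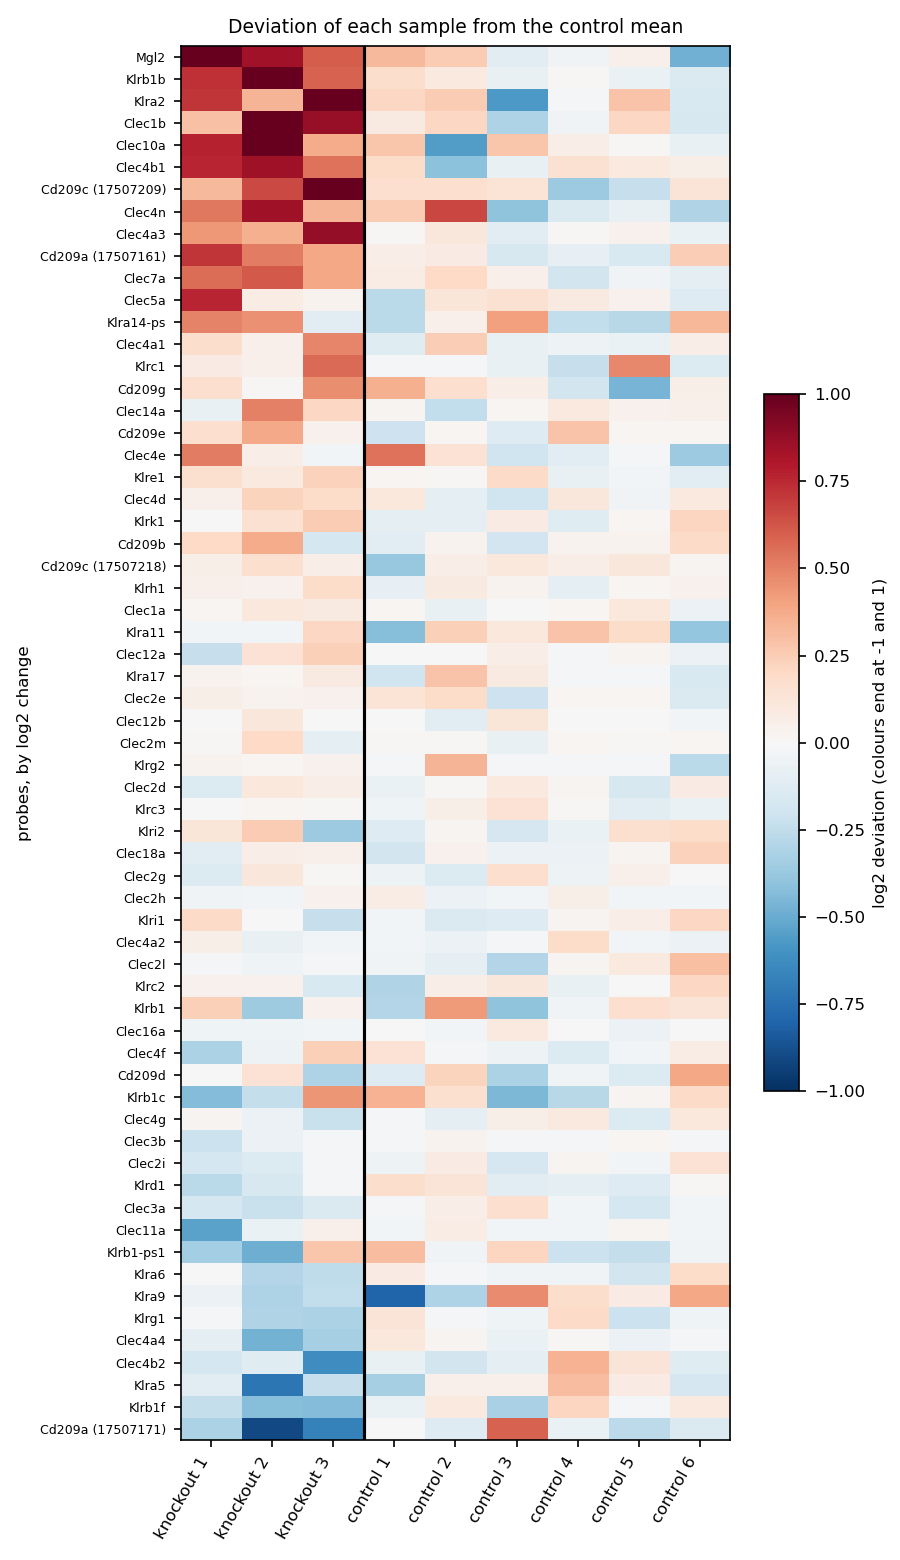
Log2 deviation of each sample (columns, knockouts left of the line) from the control mean for the 63 family probes (rows, ordered by change). The upper rows, from Mgl2 to Clec7a, are high in all 3 knockouts; Clec4n is also high in control replicate 2, and the bottom row is the second Cd209a probe.

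The receptor and ligand pairs of the Klrb1 and Clec2 groups gave 1 call, Klrb1b. Its ligand gene Clec2d, named for that pairing after its values were seen, had 10.36, 10.60 and 10.56 in the knockouts and 10.34 to 10.60 in the controls, a change of 0.01 (95% confidence interval -0.17 to 0.18). Klrb1f, which encodes an activating receptor, had 9.41, 9.23 and 9.22 in the knockouts. Its control values ranged from 9.33 to 9.87 with a median of 9.70. Knockout replicate 1 lay above control replicate 3, the lowest control, and the change of -0.37 (SE 0.11) did not pass (limma's adjusted p = 0.19). Its ligand gene Clec2i differed by -0.11 (95% confidence interval -0.28 to 0.06). All 7 Clec2 probes changed by -0.11 to 0.05, Clec2m by 0.04, and 0 passed.

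The Klra group encodes the Ly49 receptors of MHC class I, and 0 of its 7 probes passed. Klra2 encodes Ly49B, a member found on myeloid cells. It had 6.37, 5.99 and 7.05 in the knockouts, and 5.08 to 5.94 in the controls with a median of 5.75. All knockouts were above all controls, by 0.05 at the nearest, and the wide spread left the change of 0.82 (SE 0.24) with a limma adjusted p of 0.179. Klra5, which encodes Ly49E, had 7.21, 6.60 and 7.09 in the knockouts and 6.99 to 7.63 in the controls, a change of -0.36 (adjusted p = 0.401). The other 5 changed by -0.20 to 0.28.

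Klr genes outside these groups gave 0 calls. Klrd1 and Klrk1 encode CD94, the partner of the NKG2 chains, and the activating receptor NKG2D. Klrd1 changed by -0.15 (95% confidence interval -0.35 to 0.05) and Klrk1 by 0.14 (95% confidence interval -0.06 to 0.33), and Klrc1, Klrc2 and Klrc3 by -0.02 to 0.23. Klri1 encodes a partner of Klre1 in an inhibitory pair. It had 11.59, 11.40 and 11.17 in the knockouts, and 11.26 to 11.61 in the controls with a median of 11.40, a change of -0.01 (95% confidence interval -0.24 to 0.22). Klre1 changed by 0.16 (adjusted p = 0.417) and Klrg1, an inhibitory receptor for cadherins, by -0.21 (adjusted p = 0.455). The 7 remaining Clec genes changed by -0.18 to 0.21 with 0 calls, among them Clec3a (-0.18) and Clec14a, a protein of vessel walls (0.21).

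The 6 probes of several genes changed by -0.12 to 0.17, and 0 had an unadjusted p under 0.05. One of them reads Clec9a, the receptor for exposed actin that marks type 1 DCs, together with its neighbour Clec1b. It had 11.30, 11.41 and 11.35 in the knockouts, and 11.24 to 11.52 in the controls with a median of 11.31, a change of 0.01 (95% confidence interval -0.15 to 0.18). The separate Clec1b probe described above differed by 0.73 at a control mean of 6.34, beside 11.34 for the shared probe. How much of the shared signal comes from Clec1b was not determined, so these 2 changes cannot be compared directly. Of the others, 3 read Klra genes, 1 Klrb1a with Klrb1c and 1 Cd209f with Cd209g.

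Along the chromosomes, several of the larger changes stood beside small or opposite ones, while Mgl2 and Clec10a, side by side, were both higher. In RefSeq's order of protein-coding genes, the 9 genes from Clec4a1 to Clec4e are all family members with a probe. In it Clec4a3 (0.56) and Clec4b1 (0.72) lie on either side of Clec4a4 (-0.30). The longer block from Klrb1a to Klra2 holds 48 genes, of which 38 are family members, 29 of them with a family probe. Klrb1b (0.83) stands there beside Klrb1c (-0.08). Clec7a (0.52) stands between Clec1a (0.07) and Olr1 (0.32), a gene that the name rule does not cover.

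**Figure D4:**
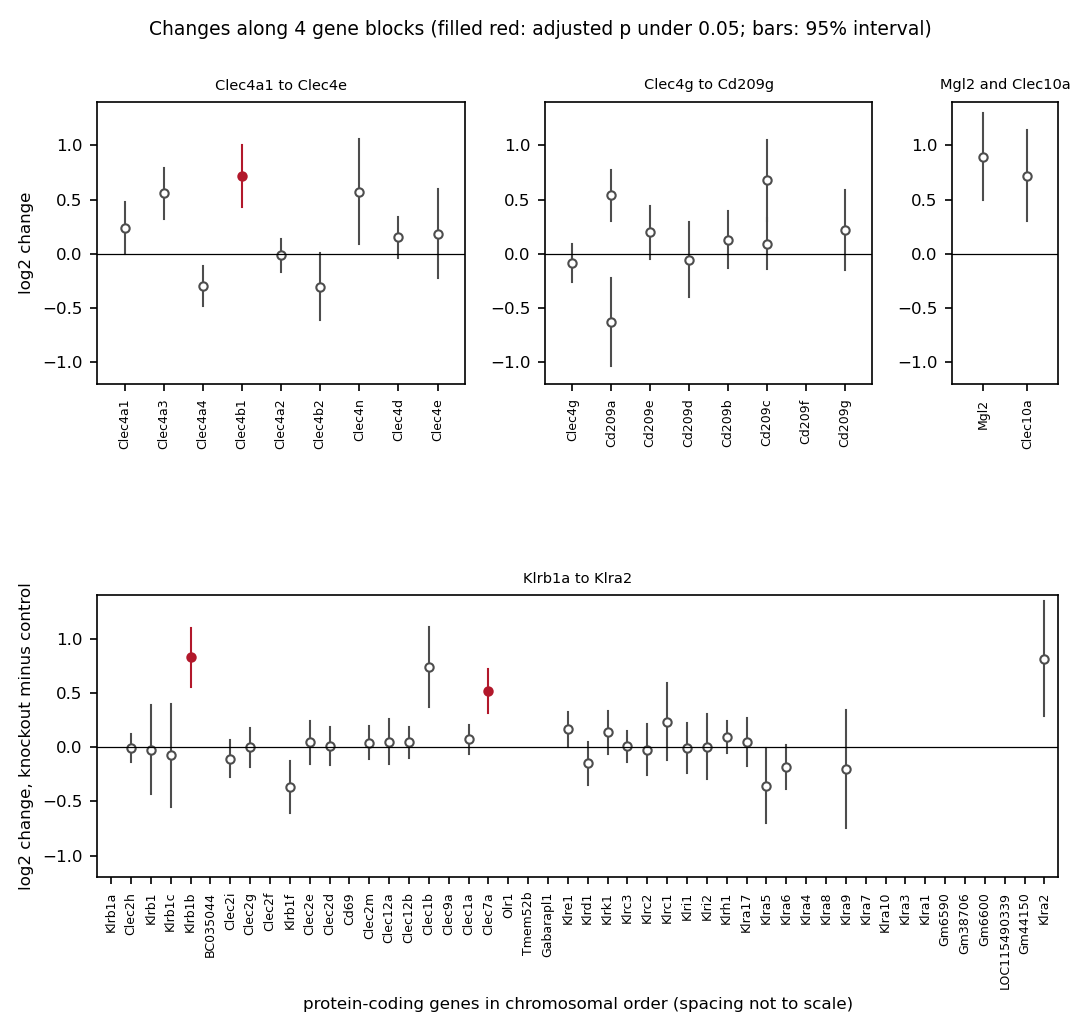
Log2 change with its 95% confidence interval for family probes along 4 blocks of neighbouring genes, in RefSeq order and with equal spacing in place of distance. Genes with no point have no family probe of their own or lie outside the family; filled red marks Clec4b1, Klrb1b and Clec7a, and Mgl2 and Clec10a lie side by side at 0.90 and 0.72.

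Adaptors, kinases, phosphatases and transcription factors that act behind these receptors were listed together with products they induce. Of 25 measured genes 0 passed the threshold, with 17 changes positive and a median change of 0.04. The induced products, named after their values were seen, are part of that median and did not pass either. Il6 differed by 0.49 and Il10 by 0.39 (limma's adjusted p = 0.422 and 0.275). Their control means of 5.43 and 4.10 lay below the median of all array values, 5.53. Tnf differed by 0.34, Il12b by 0.29, Ptgs2 by 0.25 and Il1b by 0.12, with adjusted p from 0.387 to 0.678. The kinase gene Syk had 10.32, 10.10 and 10.11 in the knockouts and 9.80 to 9.99 in the controls, a change of 0.26 (SE 0.07, limma's adjusted p = 0.166), and the kinase gene Prkcd differed by 0.20 (adjusted p = 0.183). The adaptor genes Fcer1g, Tyrobp and Card9, named for their role after their values were seen, differed by 0.13, -0.00 and -0.02. Of 20 measured lectin-like genes outside the name rule, 1 rose and 0 fell, with 18 changes positive and a median of 0.10. It was Cd93, a receptor of the C1q receptor family, which had 7.12, 6.93 and 6.91 in the knockouts and 6.16 to 6.48 in the controls, a change of 0.63 (SE 0.08, limma's adjusted p = 0.0119). It missed 0.05 in 5 of 20 alternatives, among them controls 1 to 3 only, controls 4 to 6 only, a minimum change of 1.2-fold and without knockout replicate 2. Cd69, an early activation marker whose gene lies beside Clec2d, had 9.18, 9.01 and 8.95 in the knockouts and 7.89 to 8.55 in the controls, a change of 0.69 (adjusted p = 0.067). The largest change of this list, 0.92 for Mrc1, did not pass (limma's adjusted p = 0.214). Mrc1 had 8.30, 8.87 and 8.88 in the knockouts and 7.07 to 8.65 in the controls, the highest being control replicate 2.

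Some markers of other myeloid cells were also higher. Of 14 monocyte markers, 2 rose, beside 0.531% of all probes called in either direction. They were Ace by 1.16 (SE 0.16, limma's adjusted p = 0.015) and Adgre4 by 0.83 (SE 0.13, adjusted p = 0.028). Ace missed 0.05 in 4 of 20 alternatives and Adgre4 in 10. The summed linear intensity of all 14, Ace and Adgre4 included, was 19877 to 21863 in the knockouts and 15012 to 19214 in the controls. The brightest of the 14, Nr4a1, differed by 0.12. Of 12 red pulp macrophage markers, 1 rose, Pparg (0.68, limma's adjusted p = 0.0228), which missed 0.05 in 8 of 20 alternatives. All 12 markers changed in the positive direction, with a median of 0.65. Their sum was 10649, 13601 and 13143 in knockout replicates 1 to 3 and 6371 to 12354 in the controls, the highest being control replicate 2. Treml4, which stands in both lists and was the brightest of the macrophage markers, differed by 0.02. Of 5 markers of marginal zone and metallophilic macrophages 0 passed, with a median of 0.04. The monocyte markers S100a8, S100a9 and Vcan averaged below the median of all array values in the controls, while 0 of the red pulp macrophage markers did. The part of monocytes and macrophages in the higher receptor signals was not tested.

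Among markers of NK cells and DC subsets, 1 passed, Dtx1. Of 13 measured NK and innate lymphoid markers 0 did, with a median of 0.02 and sums of 9038 to 9357 in the knockouts and 7629 to 9366 in the controls. The brightest of them was Ccl5 (control mean 12.57), which makes up most of these sums. Of the 13 markers, 7, Ncr1 and Gzma among them, averaged below the array median in the controls. Tbx21, a transcription factor gene that is also in the type 2 DC list, was named after its values were seen. It was lower in every knockout than in every control (-0.28, limma's adjusted p = 0.218), as were 3.84% of all probes. The largest change of the NK list went the other way, 0.48 for Il2rb (adjusted p = 0.178). Type 1 DC markers had 0 of 9 past the threshold and 1 of 9 changes positive (median -0.10), and type 2 DC markers 1 of 9 lower, the Notch target Dtx1 (-0.46, adjusted p = 0.025), with 2 of 9 changes positive and a median of -0.12. B cell markers had 0 of 9 past it, with a sum of 4707 in knockout replicate 3, 2714 and 2185 in the other knockouts and 2516 to 2737 in the controls.

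**Figure D5:**
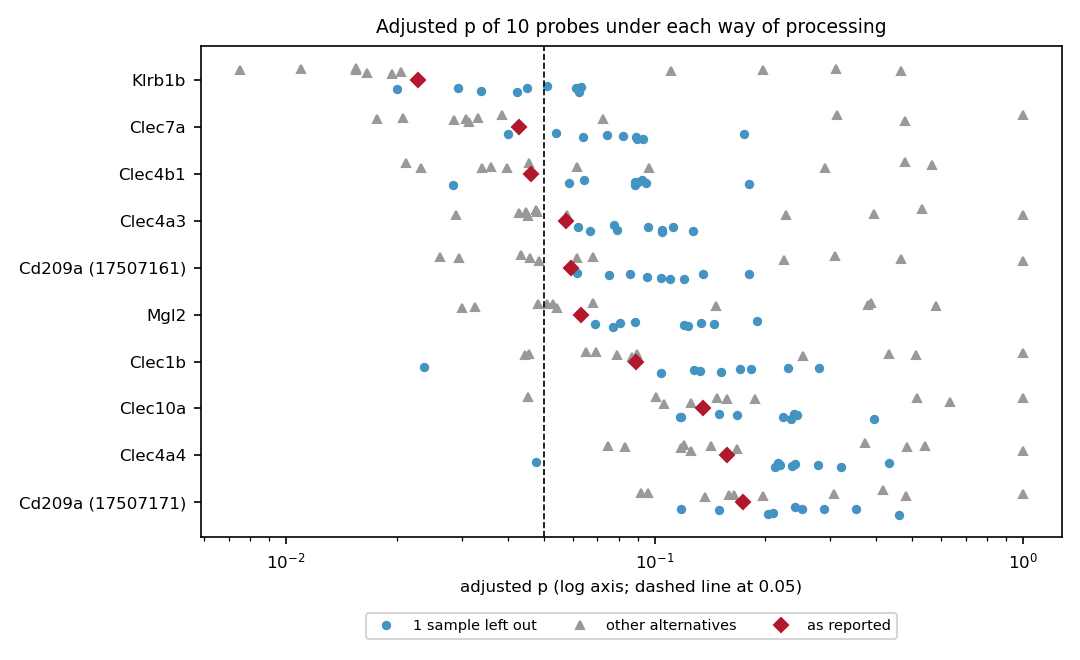
Adjusted p on a log axis for 10 probes as reported (red diamonds), with 1 sample left out (blue points) and under the other alternatives (grey triangles). The dashed line is the threshold of 0.05; Klrb1b lies left of it in 12 of 20 alternatives, Clec7a in 8 and Clec4b1 in 7.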

How the data were processed

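RNA of sorted splenic DCs was labelled with a whole-transcript kit and measured on 9 single-colour arrays, per the labels. The deposited values are log2 intensities made by the authors with RMA (background correction, quantile normalization and a summary per probe set), per the submitters' processing notes; the labels give neither a version of RMA nor a genome build. RMA removes shifts shared by most genes and compresses changes of dim probes, and brightness differs between probes for reasons other than abundance. Of 41801 rows, 7329 had no value and 4 lacked some, which left 34468 probes. Symbols came from the platform's annotation table, where 23521 probes had 1 symbol, 1814 several and 9133 none.

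Knockout and control were fitted over all 34468 probes in R 4.3.3 by limma 3.58.1, using lmFit and then eBayes without covariates or filter, and tests were two-sided. The number of arrays limits the precision: the median SE of the family probes was 0.11. Data of 34468 probes were simulated with independent normal noise and 50 probes changed by each amount. In them the fit recovered 54% of changes of 0.50, 96% of increases and 84% of decreases of 1 and 100% of changes of 2. There were 7 unchanged probes among 174 calls. Variation shared between probes was not simulated, so these rates need not hold for the measured arrays. Genes of the signalling and marker lists are given by their brightest probe.

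The family, its groups and the lists were chosen with earlier results of these data known. The genes named are family genes past 0.05, the 5 with the highest mean in knockouts and the 5 in controls. Also named are the 2 probes of smallest p in each receptor group and Cebpb. From the pathway lists, those past 0.05 and the 2 of smallest p are named. From each marker list, those past 0.05 and the brightest are named. Others were named after their values were seen. Of the marker lists, those of T cells (0 of 7 past 0.05, brightest Cd5) and plasmacytoid DCs (0 of 7, Bst2) are reported only here. The brightest members of the others were Cd22, Nr4a1, Treml4, Nr1h3, Naaa, Cd4 and H2-Ab1. Alternatives were 1 probe per gene, probes with 1 symbol only, median centring, a second quantile normalization, trend and robust eBayes, array weights (statmod 1.5.0), a replicate block, controls 1 to 3 or 4 to 6 only, a filter on dim probes, a minimum change of 1.2-fold and each sample left out. Tables and figures used Python 3.11.15, pandas 2.3.3, numpy 2.4.6 and matplotlib 3.10.9.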

Additional observations from a re-analysis of the deposited data

Results flagged for a closer look

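In 3 of 27 family and Cebpb probes examined, 1 of the 6 controls stood apart from the other 5 by Dixon's test, which chance alone gives in about 1 of 20 groups. For the second Cd209a probe (17507171), control replicate 3 had 10.13 and the other controls 9.28 to 9.55. The 3 knockouts lay below all of them, which leaving out this highest control could not alter. For Clec14a, control replicate 2 had 4.345 and the other controls 4.61 to 4.68. For Clec2m, control replicate 3 had 5.855 and the other controls 5.94 to 5.95, a gap under 0.10 on the log2 scale.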

How the results depend on the processing

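The settings of 1 probe per gene, probes with 1 symbol, trend and robust eBayes, the dim filter and the minimum change leave each change itself as it is. Direction could not turn there. Only called probes could lose a call. Clec4b1 lost it in 13 of 20 alternatives, Clec7a in 12, Adgre4 in 10, and Klrb1b, Pparg and Dtx1 in 8 each. Cd93 lost it in 5, Ace in 4 and Cebpb in 1. Among all named probes under the alternatives, 790 values kept direction and side of the threshold, 69 lost a call, 23 gained one and 12 changed sign. The 12 were Clec2m without knockout replicate 2 (-0.040, of a leave-one-out range up to 0.11), Klri1 with array weights (0.0099), with the replicate block or controls 1 to 3 (0.088), without control replicate 5 or 6 (0.0012 and 0.030) and without knockout replicate 3 (0.097, range from -0.11), Treml4 with controls 4 to 6 (-0.063), without control replicate 3 (-0.052) and without knockout replicate 3 (-0.0054, range up to 0.056), and Bst2 with the replicate block or controls 1 to 3 (-0.0092). The 3 family probes higher in the knockout became 6 with 1 probe per gene, 5 with probes of 1 symbol or trend and robust eBayes, 8 with array weights, 7 with the filter on dim probes, and 0 with the replicate block, controls 1 to 3, controls 4 to 6 or a minimum change of 1.2-fold. Leaving out 1 sample gave 0 to 3 higher and 0 to 1 lower (Clec4a4 without knockout replicate 1). The 183 calls over all probes became 501 with array weights, 478 with the filter, 6 with the block, 12 with controls 1 to 3, 29 with controls 4 to 6, 20 with the minimum change and 59 to 277 with 1 sample left out. The family median of 0.041 ranged from 0.0073 to 0.060 over the same fits. The replicate number is a shared number only: same-numbered samples correlated in their deviations at -0.16, -0.10 and 0.05, and the block gave limma adjusted p-values of 0.467 for Klrb1b, 0.48 for Clec7a and Clec4b1 and 0.168 for Cebpb. The median SE was 0.108 both for family probes above the array median and for those at or below it. The cause of the shifts in these counts was not tested.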

Other observations

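Equal deposited values recurred across arrays. In 22 of the 63 family probes (34.9%) at least 2 samples had exactly the same value, beside 50.3% of all probes. Clec3b and Clec12b each had 1 value shared by 5 of the 9 samples, while Klrb1b, Clec7a and Clec4b1 had 0 equal values. Among the 39 family probes whose control mean exceeded the median of all array values, 11 (28.2%) differed by at least 0.50, beside 3.17% of all probes as bright, and among the 24 dimmer family probes 1 did (Clec10a).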
